A study of Oryza sativa Japonica Group with 15 samples.

Results

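Long cis contacts are pairs of DNA segments from the same chromosome that were captured together although they lie 2 Mb or more apart along it. They were collected here from single-cell Hi-C of rice (Oryza sativa, japonica, cultivar Dongjin), in which DNA segments that lie close together in 1 fixed nucleus are cut, ligated to each other and sequenced as pairs. Each cell's distinct pairs of restriction fragments were taken as its contacts. The long ones were chosen by their measured separation between fragment midpoints, and contacts were merged to 1 per pair of 10 kb bins. Separations are therefore a description of the members, with no test. Of 4231 merged far contacts, meaning contacts between chromosomes or within a chromosome at 20 kb or more, 415 were long. The other far contacts were 3508 between chromosomes (trans) and 308 at 20 kb to 2 Mb. Before merging there were 546 long fragment pairs, among 28358 distinct fragment pairs of all separations.

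The cells were 4 eggs from florets that had not been pollinated, 4 sperm from stamens, 3 zygotes that were still a single cell, isolated from florets pollinated 6 to 8 hours earlier, and 4 shoot cells of seedlings that had germinated 12 days before. Eggs and sperm are haploid, and the zygote and the shoot cell carry both parental sets of chromosomes. All were of the cultivar Dongjin, the labels give no mutation or treatment, and no plant, floret or seedling of origin was named. Each group therefore counts as 1 sample. No test between groups was made, and the values below are given per cell.

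Within a nucleus each chromosome keeps to a territory of its own, so that a chromosome meets itself more often than it meets another. Inside the territory, the frequency of contact falls with separation. In the Rabl arrangement, known from many plant nuclei, centromeres lie towards one side and chromosome ends towards the other, so that both arms of a chromosome run side by side. An arm that folds back on itself would bring together positions at equal distances from its middle. Contacts at 2 Mb or more are those in which such arrangements could be read.

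The files held 2236 to 17291 read pairs per cell, which came down to 761 to 4576 distinct contacts and 110 to 455 merged far contacts. Shoot cells 3 and 4 were registered apart from the other cells, and the series' design text names a smaller number of shoot cells than the 4 analysed. Certain 10 kb bins had an end of a far contact in 5 or more of 15 cells. These recurrent bins numbered 95, of which 30 lay on chromosome 12, and results that rest on them are given with and without them. The number of long contacts limits every value below, since 9 to 51 were found per cell. Exact 95% intervals (Clopper-Pearson for shares, Poisson for counts) cover counting error only, and contacts that share a fragment are not independent of each other.

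The 4 eggs had 43, 31, 51 and 35 long contacts. The 4 sperm had 26, 19, 22 and 9. The 3 zygotes had 16, 33 and 30. The 4 shoot cells had 22, 25, 25 and 28. Eggs thus had more long contacts than any sperm or shoot cell, with overlap only with zygote 2, and they also had 294 to 455 far contacts, while sperm had 110 to 245, zygotes 172 to 310 and shoot cells 210 to 340.

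The groups overlapped in the share of far contacts that were long. It was 10.1% ± 2.00 in eggs, 9.80% ± 1.49 in sperm, 10.3% ± 0.923 in the zygotes and 9.53% ± 3.05 in shoot cells (SD over cells, n = 4, 4, 3 and 4). Single cells ran from 6.81% in shoot cell 1 to 13.3% in shoot cell 4. The extremes of all cells thus lay within 1 group. Over all cells the share was 9.81% (8.93% to 10.7%).

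To read these counts against coverage, the same far ends of a cell were paired at random by counting all possible pairs of ends. This gives the number of long contacts that a chromosome would have if its ends met any other end of the cell equally often. The ends include those of the long contacts themselves, so many long contacts on a chromosome also raise its number under random pairing. Over all cells, 415 long contacts were observed, against 352 under random pairing, a ratio of 1.18 (1.07 to 1.30). The ratio was above 1 in 13 of 15 cells. The exceptions were shoot cell 1, at 0.934, and shoot cell 3, at 0.994.

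Eggs had 160 long contacts, against 136 under random pairing, a ratio of 1.18 (1.00 to 1.38). Sperm had 76 against 56.4, a ratio of 1.35 (1.06 to 1.69). Zygotes had 79 against 65.5, a ratio of 1.21 (0.955 to 1.503), and shoot cells had 100 against 94.3, a ratio of 1.06 (0.863 to 1.29). The order ran from sperm to shoot cells, but neighbours in it did not differ beyond their intervals, and the intervals of all 4 groups overlapped.

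Cells of a group differed about as much as the groups did. The ratios of the eggs were 1.05, 1.01, 1.42 and 1.26, and those of the sperm were 1.30, 1.49, 1.42 and 1.11. The zygotes had 1.01, 1.27 and 1.27, and the shoot cells had 0.934, 1.32, 0.994 and 1.05. Egg 3 was the one cell whose interval (1.06 to 1.87) lay above 1. Without recurrent bins the total was 252 long contacts against 227, a ratio of 1.11 (0.979 to 1.26), with 10 of 15 cells above 1. The group ratios were then 1.18 in eggs, 1.28 in sperm, 1.35 in the zygotes and 0.897 in shoot cells, so that the order of sperm and zygotes turned and shoot cells fell below 1.

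**Figure D1:**
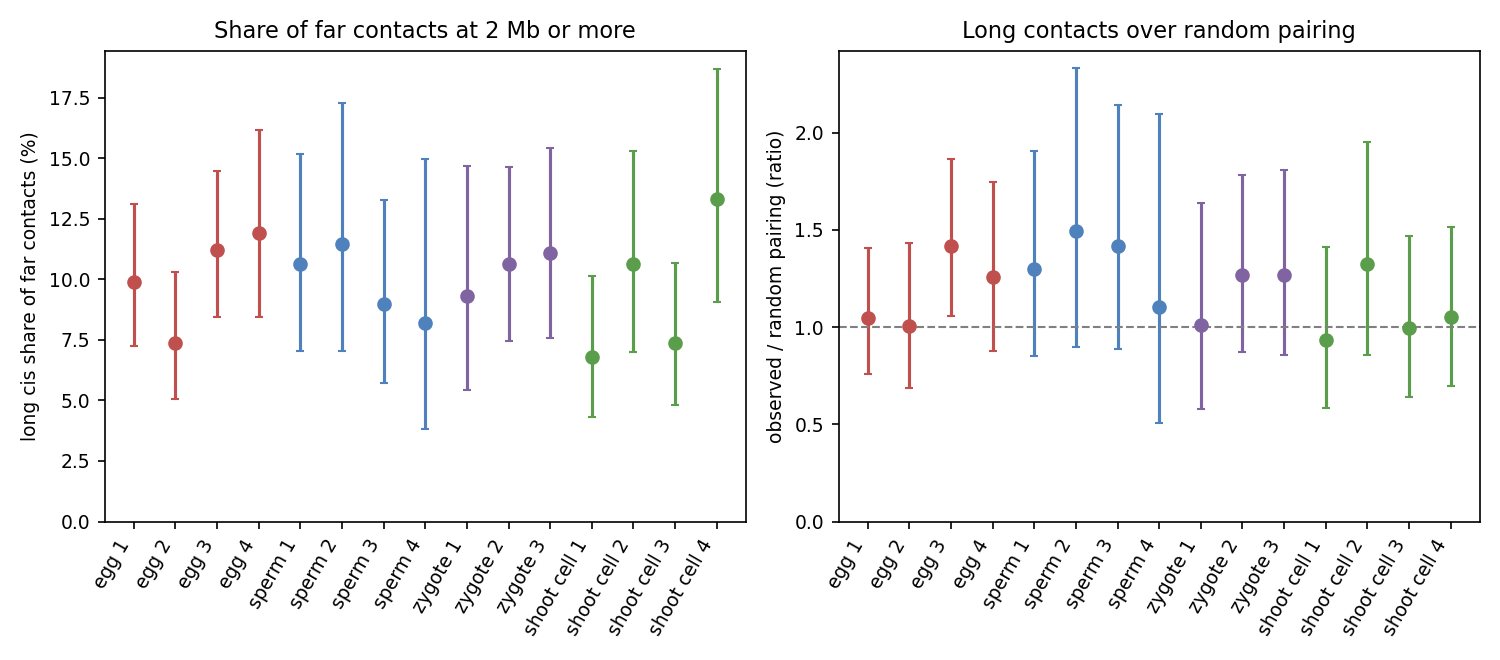
Long cis share of far contacts in percent (left) and long contacts over random pairing as a ratio (right) in each of the 15 cells, with points for values and bars for exact 95% intervals. Shares run from 6.81% to 13.3%, and 13 of 15 cells lie above the dashed line at a ratio of 1.

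The long contacts were spread unevenly over the 12 chromosomes. Chromosome 12 held 124 of them (29.9%), with 64 in eggs, 16 in sperm, 26 in the zygotes and 18 in shoot cells. Chromosome 1, the longest at 43.2 Mb, held 72, with 18, 14, 23 and 17 in the same groups. Chromosomes 6, 2 and 3 followed with 36, 35 and 35. Chromosome 8 had the fewest, 9. Coverage was uneven in the same way, since chromosome 12 had 52.4 far ends per Mb and the other chromosomes had 16.1 to 26.7.

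Read against random pairing, the chromosomes differed less. Part of this is built in, because the ends of a chromosome's own long contacts count towards its number under random pairing. Over all cells the ratio ran from 0.795 (0.435 to 1.33) on chromosome 11 to 1.44 (0.931 to 2.12) on chromosome 7. Chromosome 12 had 124 contacts against 97.0, a ratio of 1.28 (1.06 to 1.52). It was the one of 12 chromosomes (8.33%) with an interval above 1, and none lay below. Chromosome 1 had a ratio of 1.27 (0.994 to 1.60).

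Within groups, the interval lay above 1 on 8.33% of chromosomes in sperm and on 0% in eggs, zygotes and shoot cells, and it lay below 1 on none. The chromosome in sperm was chromosome 12, with 16 contacts against 9.03, a ratio of 1.77 (1.01 to 2.88). The ratio of chromosome 12 was 1.24 (0.954 to 1.58) in eggs, 1.02 (0.667 to 1.497) in the zygotes and 1.66 (0.985 to 2.63) in shoot cells, and all 4 intervals overlapped. With 12 chromosomes looked at in each of 4 groups, 1 such interval is no more than a description.

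Without recurrent bins, chromosome 12 kept 15 long contacts (5.95% of 252), with a ratio of 1.37 (0.769 to 2.27). Its place at the top of the counts therefore came with its recurrent bins. The chromosome with an interval above 1 over all cells was then chromosome 1, with 43 contacts against 30.7, a ratio of 1.40 (1.01 to 1.88), again 8.33% of 12. In zygotes it was chromosome 6 (8.33%), with 4 contacts against 0.915. Other groups had none.

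**Figure D2:**
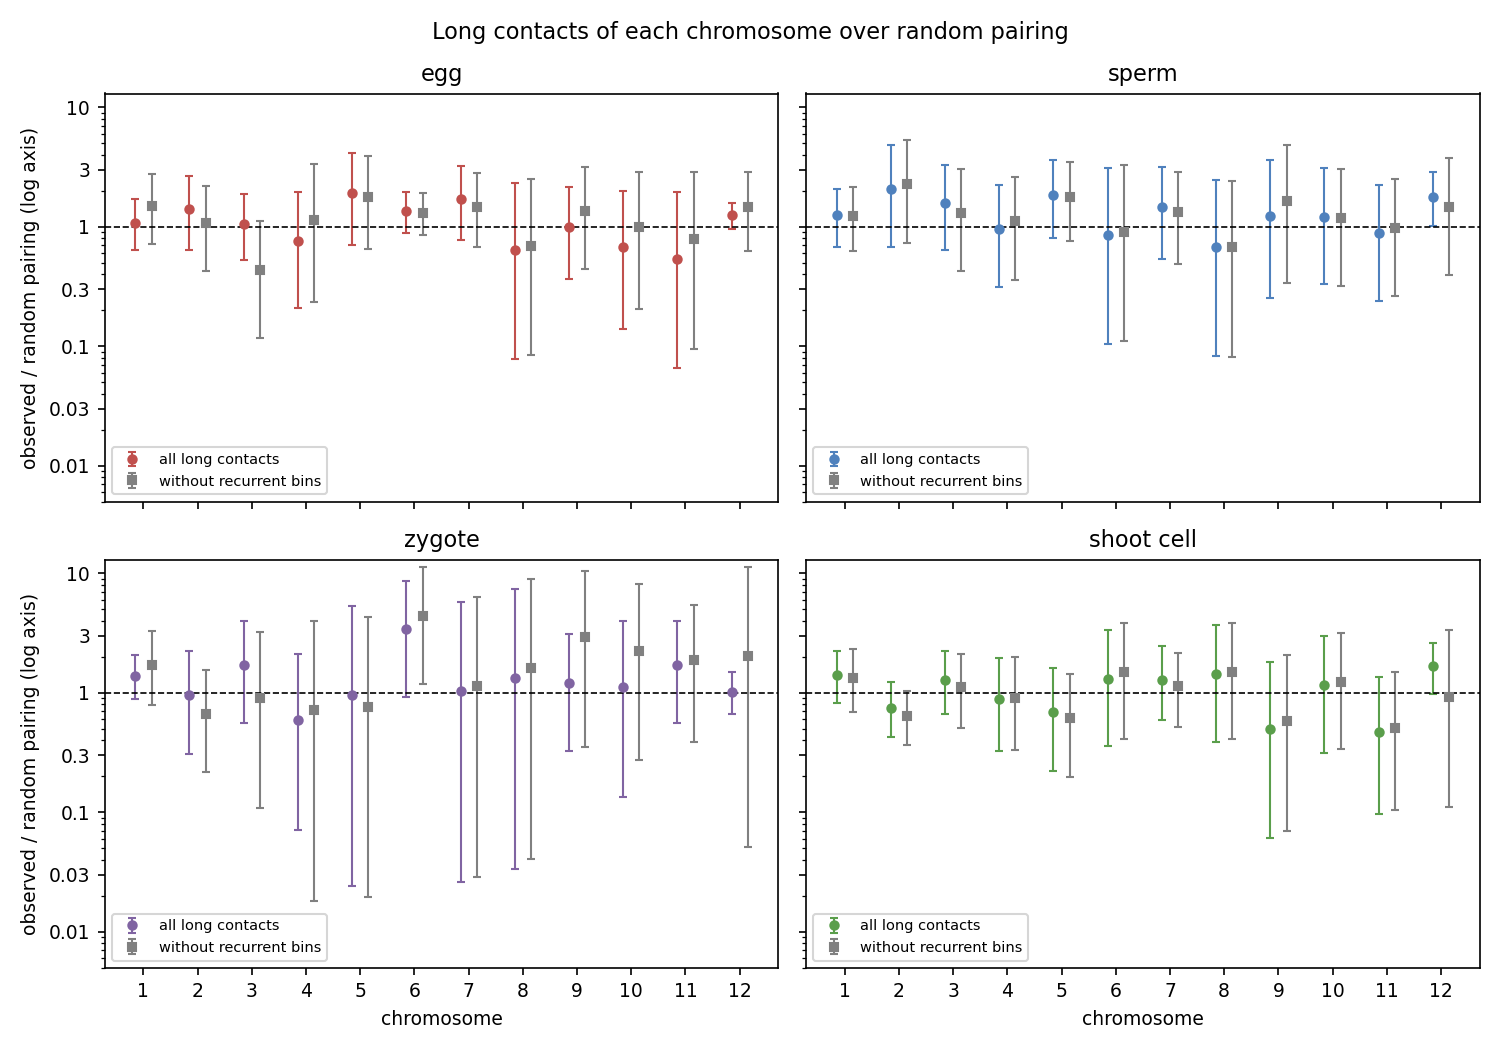
Observed long contacts over random pairing (log axis) for each of the 12 chromosomes, 1 panel per group. Circles are all long contacts, grey squares leave out recurrent bins, and bars are exact 95% Poisson intervals, nearly all of which cross the dashed line at 1, with chromosome 12 in sperm at 1.77 (1.01 to 2.88).

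On chromosome 12 the long contacts came back to a few places. The bins of chr12:13340001-13420000 and those of chr12:20470001-20670000, in the coordinates of the files, were joined by 44 contacts in 12 of 15 cells. Eggs held 15 of the 44, sperm 5, zygotes 15 and shoot cells 9. Random pairing of the same ends gives 28.9, a ratio of 1.52 (1.10 to 2.04). The pair was picked because it recurs, so its ratio is a description. Both segments have many far ends, which is why the number under random pairing is high too.

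The second segment also met chr12:8530001-8550000, with 18 contacts in 10 cells against 6.62 under random pairing, a ratio of 2.72 (1.61 to 4.30). Eggs held 11 of these 18, sperm 2, zygotes 3 and shoot cells 2. The first segment and chr12:8530001-8550000 met 7 times against 5.90. The centromere was placed near 12 Mb, so the first segment and the second lie on the same arm and chr12:8530001-8550000 lies on the other.

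Some recurring contacts were the same fragment pair in several cells. The fragments chr12:13386094-13387360 and chr12:20559791-20560326 were joined in 9 cells, namely 2 eggs, 3 zygotes and 4 shoot cells, by 139 read pairs in all and 1 to 49 per cell. Both ends had the same strand in all 9 cells. No sperm held the pair.

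On chromosome 3, chr3:11666744-11667013 met chr3:33247727-33248179 in 5 cells (3 eggs, 1 sperm and 1 shoot cell), and chr3:13642987-13644052 met chr3:31810608-31810928 in 5 cells (1 sperm, 3 zygotes and 1 shoot cell). On chromosome 12, chr12:4678005-4678498 met chr12:17346778-17347901 in 5 cells (1 sperm, 2 zygotes and 2 shoot cells). A further pair, chr12:21599700-21600663 with chr12:24683198-24684135, was found in 4 cells (2 eggs and 2 shoot cells). In each of these 4 pairs, every cell had the same combination of strands. Random pairing gives 0.0416, 0.0444, 0.129 and 0.0410 contacts for the segments that hold them. All these pairs were picked because they recur.

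Recurrence across cells was similar in size for long and trans contacts, and its order depended on the unit. Of 508 distinct long fragment pairs, 18 (3.54%) occurred in 2 or more cells, beside 173 of 4138 (4.18%) of trans pairs and 9 of 507 (1.78%) of pairs at 20 kb to 2 Mb. In pairs of 10 kb bins the share was 7.40% for long contacts, 5.34% for trans contacts and 6.45% at 20 kb to 2 Mb. In pairs of 1 Mb bins it was 8.77% for long contacts (25 of 285), 7.94% for trans contacts and 14.7% at 20 kb to 2 Mb. Those 25 pairs held 135 of the 415 contacts (32.5%), and 11 of them, with 96 contacts, lay on chromosome 12.

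Pooled over chromosomes, long contacts joined recurrent bins to each other in a larger share than trans contacts did. The interval of contacts at 20 kb to 2 Mb overlapped that of long contacts. Both ends lay in recurrent bins in 122 of 415 long contacts, 29.4% (25.1% to 34.0%), beside 526 of 3508 trans contacts, 15.0% (13.8% to 16.2%), and 63 of 308 contacts at 20 kb to 2 Mb, 20.5% (16.1% to 25.4%). These were 55 contacts in eggs, 13 in sperm, 33 in the zygotes and 21 in shoot cells. Of the 122, 92 lay on chromosome 12, which held 124 of the 415 long contacts and 30 of the 95 recurrent bins. A trans contact can have only 1 end there, and the far contacts that defined the recurrent bins include the long ones. The larger share therefore came with chromosome 12 and was not shown for the other chromosomes. A further 41 long contacts had 1 end in a recurrent bin, and 252 had none.

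Single cells had chromosomes of their own that stood out by count. Egg 1 had 31 of its 43 long contacts (72.1%) on chromosome 12. Egg 3 had 22 of its 51 on chromosome 6, where the other eggs had 3, 0 and 1. Zygote 3 had 13 on chromosome 1, and shoot cell 4 had 12 on chromosome 2 and 8 on chromosome 7. For these chromosomes random pairing gives 23.2 in egg 1, 9.11 in zygote 3, and 16.6 and 4.42 in shoot cell 4. The intervals of these ratios all covered 1, and the ratio of chromosome 2 in shoot cell 4 was 0.721. Sperm 3 had no long contact on chromosome 12, which all 14 other cells had. With 21 far ends there, random pairing gives 0.333 for it.

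In egg 3, 20 of the 22 contacts of chromosome 6 had an end in 1 of 3 bins. The bin chr6:17110001-17120000 had 12 long contacts among 68 far contacts, chr6:8600001-8610000 had 7 among 25 and chr6:20030001-20040000 had 4 among 10. None of the 3 bins had a far contact in any other cell. Random pairing gives 15.1 long contacts for this chromosome in egg 3, a ratio of 1.46 (0.912 to 2.20). Without egg 3, the ratio of chromosome 6 in eggs was 0.942, against 1.34 (0.877 to 1.97) with it.

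Such bins were not limited to egg 3. Over all cells, 11 bins had 4 or more long contacts in 1 cell, and 5 of them lay on chromosome 12 in egg 1. In zygote 3, chr1:33520001-33530000 had 7 of the 13 long contacts of chromosome 1. That bin held far contacts in 6 cells.

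With all contacts, the number of long contacts followed chromosome length loosely, and more closely without chromosome 12 or without recurrent bins. Over the 12 chromosomes, Spearman's rho of the count with length was 0.39 in eggs, 0.38 in sperm, 0.26 in the zygotes and 0.56 in shoot cells. Over all cells it was 0.53 with a Pearson r of 0.25, and without chromosome 12 the rho was 0.82. Without recurrent bins, rho was 0.35 in eggs, 0.60 in sperm, 0.42 in the zygotes and 0.84 in shoot cells, and 0.75 over all cells. The chromosomes share cells and depth, so these are descriptions.

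Far ends themselves had a rho with length of 0.47 over all cells, 0.77 without chromosome 12 and 0.88 without recurrent bins. The ratio to random pairing, which takes the ends into account, had a rho with length of 0.34 in eggs, 0.27 in sperm, 0.08 in the zygotes and 0.10 in shoot cells. Over all cells it was 0.25, and -0.12 without recurrent bins. Without recurrent bins the groups had 0.04, 0.03, -0.57 and 0.19 in the same order, so the zygotes, with 32 such contacts, had lower ratios on longer chromosomes.

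Over all cells, the ratio to random pairing was highest in the class of the shortest separations. At 2 to 5 Mb, 94 contacts were observed, against 67.0 under random pairing, a ratio of 1.40 (1.13 to 1.72), and 12 of 15 cells lay above 1. At 5 to 10 Mb the ratio was 1.08 (0.905 to 1.28), at 10 to 20 Mb it was 1.20 (1.01 to 1.41, with 142 contacts against 118), and at 20 Mb or more it was 1.06 (0.776 to 1.41). The intervals of all 4 classes overlapped.

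The class at 2 to 5 Mb was above 1 in every group, with ratios of 1.40 in eggs, 1.49 in sperm, 1.22 in the zygotes and 1.46 in shoot cells. It was not the highest class in zygotes, which had 1.25 at 5 to 10 Mb and 1.23 at 10 to 20 Mb. Without recurrent bins the class at 2 to 5 Mb had a ratio of 1.57 (1.22 to 1.99) over all cells. The class at 10 to 20 Mb then had a ratio of 1.03 and its interval covered 1.

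**Figure D3:**
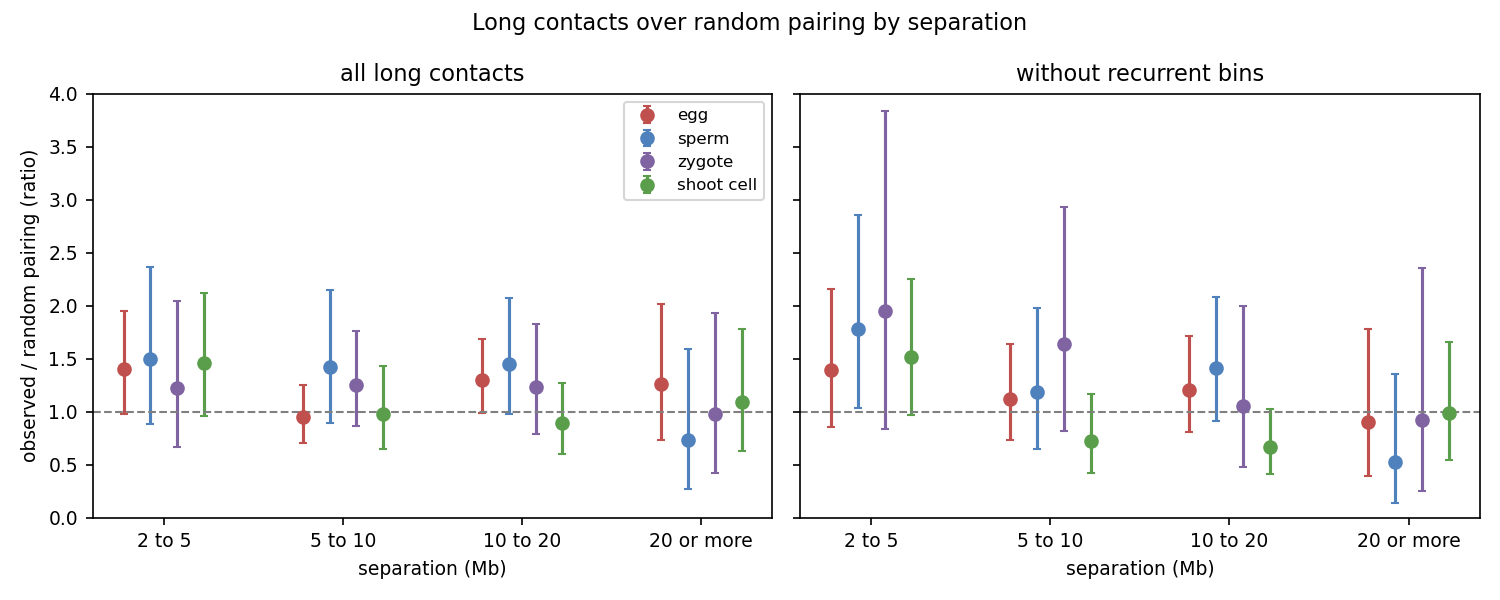
Observed long contacts over random pairing (ratio, vertical axis) in 4 classes of separation in Mb, for all long contacts (left) and without recurrent bins (right). Points are groups and bars exact 95% Poisson intervals, and at 2 to 5 Mb all 4 groups lie above 1, from 1.22 to 1.49 in the left panel.

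Nearly as many contacts lay over 10 Mb apart as under it. The share over 10 Mb was 46.9% of 160 in eggs, 47.4% of 76 in sperm, 40.5% of 79 in the zygotes and 46.0% of 100 in shoot cells. Random pairing gives 42.8%, 51.2%, 42.3% and 51.2% for the same groups. The intervals of all 4 groups covered the value under random pairing. Eggs lay above it with all contacts and below it without recurrent bins, at 45.2% against 47.3%. Among sperm it ran from 11.1% in sperm 4 (9 long contacts) to 63.6% in sperm 3. The median separation was 8.99 Mb in eggs, 8.67 Mb in sperm, 7.49 Mb in the zygotes and 7.60 Mb in shoot cells.

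More contacts fell within arms than between them in every group except eggs. Eggs had 76 contacts within an arm and 84 between arms, sperm had 46 and 30, zygotes had 46 and 33, and shoot cells had 59 and 41. The share between arms was 52.5%, 39.5%, 41.8% and 41.0%. All 4 eggs lay between 51.2% and 54.8%, while sperm ran from 31.6% to 45.5%, zygotes from 33.3% to 50.0% and shoot cells from 32.0% to 52.0%. One shoot cell thus lay within the range of the eggs. Without recurrent bins eggs ran from 41.2% to 66.7%, sperm from 0% to 40.0%, zygotes from 35.3% to 85.7% and shoot cells from 23.1% to 52.2%. The close range of the eggs was thus seen only with the recurrent bins.

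The between-arm count was set against the same separations placed evenly along their chromosome. Eggs had a ratio of 1.04 (0.833 to 1.29), sperm of 0.876 (0.591 to 1.25), zygotes of 0.939 (0.646 to 1.32) and shoot cells of 0.876 (0.628 to 1.19). Over all cells, 188 contacts were observed, against 197, a ratio of 0.956 (0.824 to 1.10). Every one of these intervals covered 1. Contacts with a neighbour are those with another far contact whose ends both lie within 1 Mb of theirs. Among them the interval lay below 1 in zygotes, at 0.373 (0.102 to 0.955, 4 of 28 contacts), and in shoot cells, at 0.261 (0.0316 to 0.943, 2 of 16). Of these, 18 of the 28 and 8 of the 16 lay on chromosome 12, where 2 and 0 joined the arms. Contacts with a neighbour come in clusters, which the intervals do not allow for.

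Set against random pairing of the same ends instead, between-arm contacts had ratios of 1.28 in eggs, 1.08 in sperm, 1.24 in the zygotes and 0.897 in shoot cells. Within-arm contacts had ratios of 1.09, 1.61, 1.18 and 1.22 in the same groups. With all contacts, sperm and shoot cells had the higher ratio within arms, and eggs and zygotes between arms. Single cells went against their group. Egg 3 had 1.37 between arms and 1.49 within, zygote 2 had 0.954 and 1.52, and shoot cell 3 had 1.01 and 0.972. Without recurrent bins eggs turned, with 1.14 between arms and 1.22 within. Whether these groups differ in it was not tested. Of the 227 within-arm contacts, 48 lay on a short arm.

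If both arms ran side by side from the centromere outwards, between-arm contacts would gather where both ends lie equally far from it. Contacts whose ends lay within 2 Mb of the same distance numbered 19 in eggs, 8 in sperm, 7 in the zygotes and 7 in shoot cells. Random pairing of ends on opposite arms gives 23.5, 8.81, 9.72 and 8.57. Over all cells, 41 were observed, against 50.6, a ratio of 0.811 (0.582 to 1.10). No gathering along the line of equal distance was detectable at this depth.

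**Figure D4:**
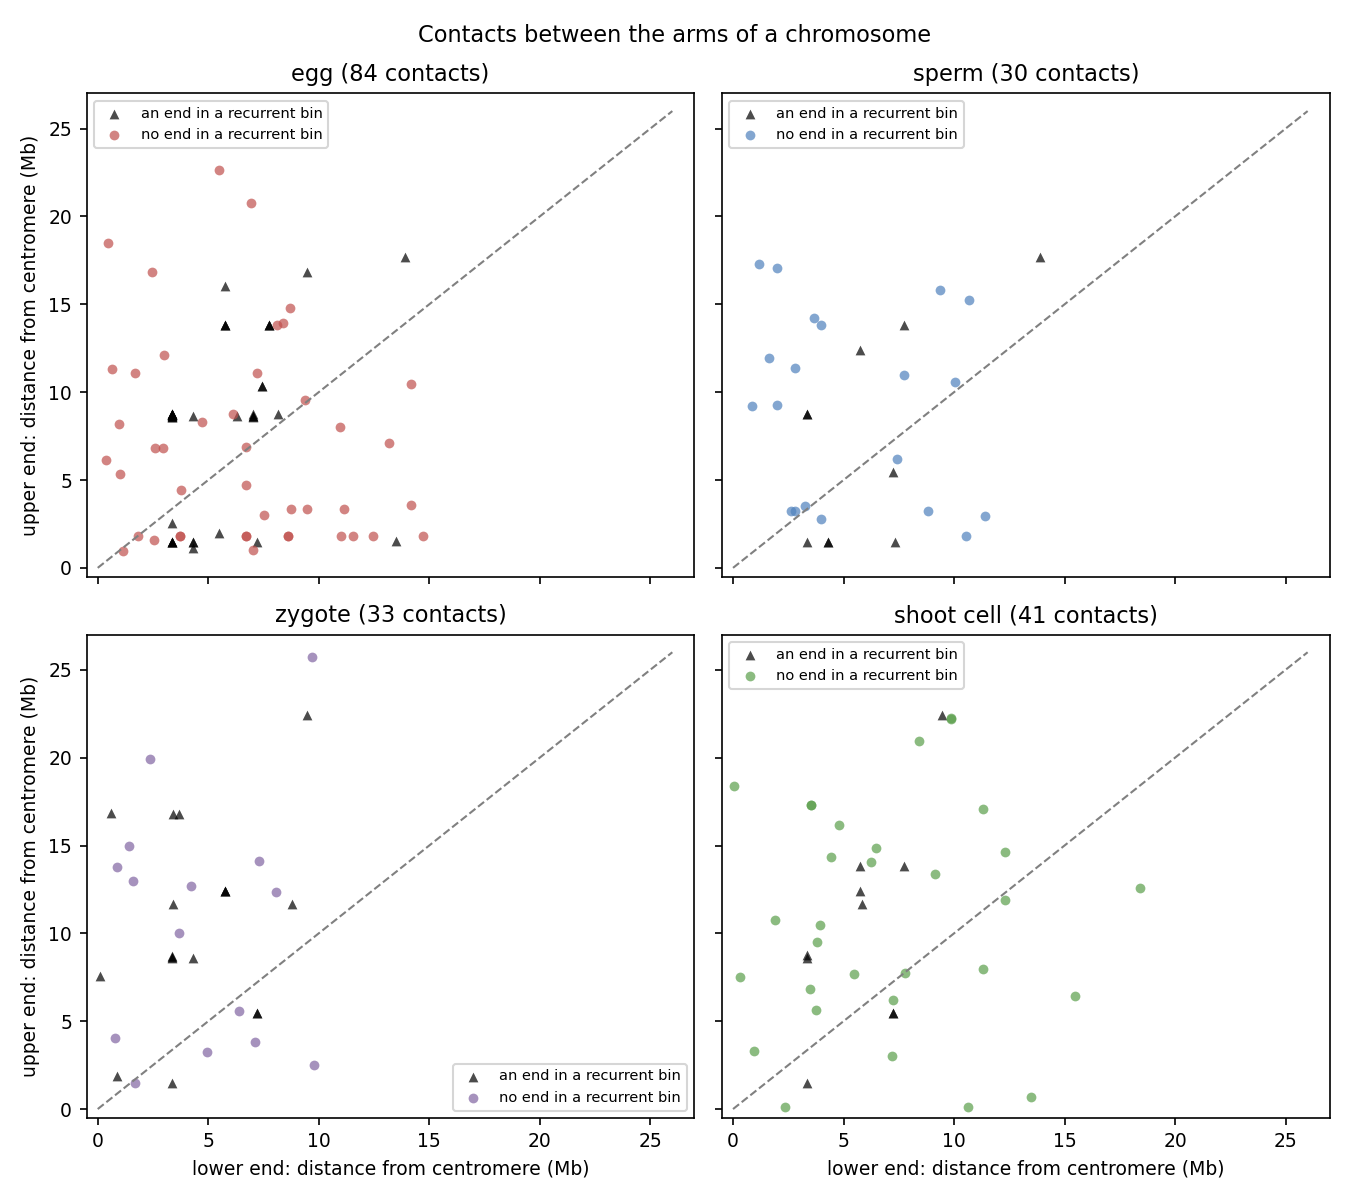
Distance from the centromere in Mb of the end at the lower coordinate (horizontal axis) and of the end at the higher coordinate (vertical axis) for each between-arm contact, 1 panel per group. The dashed line marks equal distance, black triangles have an end in a recurrent bin, and the points of all 4 groups (84, 30, 33 and 41 contacts) spread over both sides of the line, with 41 contacts within 2 Mb of it.

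Within an arm, contacts were placed by an offset that is 0 when the contact is centred on the arm's middle and 1 when it lies at an arm's end. Even placement averages 0.5. A fold around the middle would bring the offset towards 0. The mean offset was 0.494 in eggs (n = 76 contacts), 0.547 in sperm (46), 0.518 in the zygotes (46) and 0.517 in shoot cells (59). Over all cells it was 0.516, beside 0.515 for all pairs of far ends on the same arm. Cells ran from 0.410 in egg 3 to 0.680 in sperm 4, which had 6 such contacts.

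The offsets were not spread evenly for all that. In 4 equal classes of offset from the middle outwards, 39, 63, 87 and 38 of the 227 contacts were found. The contacts that join chr12:13340001-13420000 with chr12:20470001-20670000 form a step in the third class. Without recurrent bins the classes held 25, 53, 27 and 37 of 142, and the mean offset was 0.489 in eggs, 0.532 in sperm, 0.559 in the zygotes and 0.492 in shoot cells. The innermost class, where a fold around the middle would show, then held 6 of 40 contacts in eggs, 6 of 40 in sperm, 2 of 17 in zygotes and 11 of 45 in shoot cells.

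**Figure D5:**
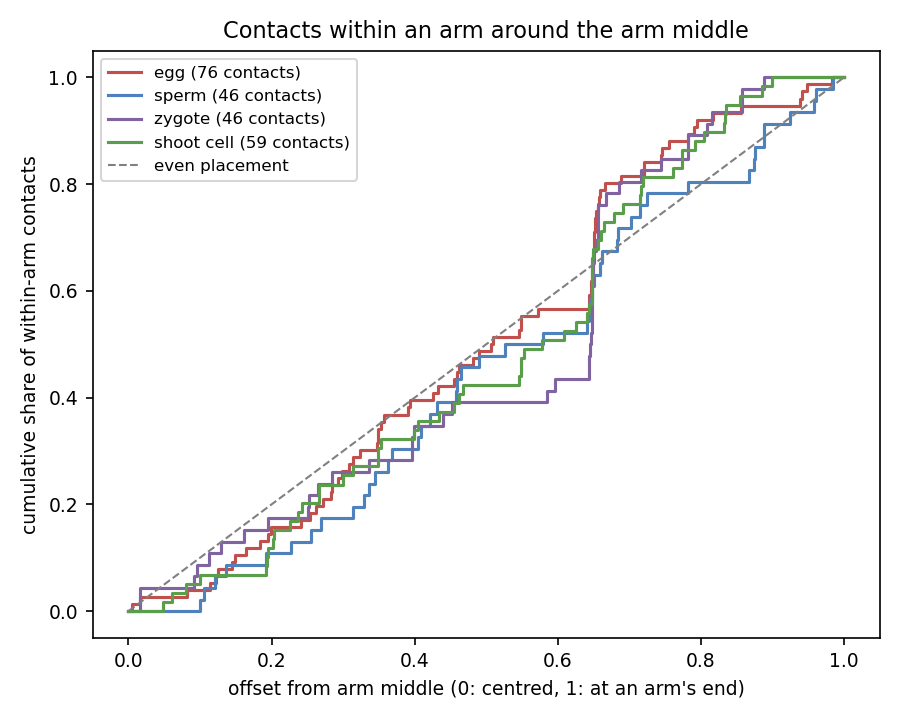
Cumulative share of within-arm long contacts (vertical axis) against their offset from the arm's middle (horizontal axis, 0 centred and 1 at an arm's end), with 1 line per group. Mean offsets run from 0.494 to 0.547, near that of even placement (dashed line), but the lines leave it at a step. The step lies at the place of the recurring contacts of chromosome 12, in the third of 4 equal classes of offset. That class held from 30.4% of contacts in sperm to 45.7% in zygotes.

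The ends of long contacts lay along the chromosome much as the ends of trans contacts did. Within 2 Mb of a chromosome's end lay 8.43% of the 830 ends of long contacts, beside 9.72% of the 7016 ends of trans contacts. Within 2 Mb of the centromere lay 18.0%, beside 17.4% for trans contacts. By group, the share near chromosome ends in long contacts was 6.56% in eggs, 11.2% in sperm, 6.96% in the zygotes and 10.5% in shoot cells. In trans contacts it was 6.87%, 13.7%, 7.81% and 12.6% in the same groups. Without recurrent bins, the long contacts of eggs had 11.3% of their ends there, those of sperm 14.2%, those of zygotes 15.6% and those of shoot cells 13.8%. The low share of zygotes thus came with the recurrent bins, and eggs had the lowest share in both sets.

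In how they were read, long contacts of all cells together stood between trans contacts and those at 20 kb to 2 Mb. A single read pair carried 262 of 415 long contacts, 63.1% (58.3% to 67.8%), beside 68.0% of trans contacts and 53.6% of contacts at 20 kb to 2 Mb. Eggs and shoot cells had the same order, while sperm and zygotes did not. In sperm the shares were 69.7%, 67.2% and 37.8% for long, trans and 20 kb to 2 Mb, and in zygotes 53.2%, 64.6% and 72.3%. Read pairs are summed here over the merged pair of bins, and the most on a long contact were 192. The strands of the ends were spread over all 4 combinations, with 118, 104, 101 and 92 contacts in the order ++, +-, -+ and --. The median fragment measured 714 bp, beside 717 bp in trans contacts.

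Such a neighbour was found for 128 long contacts, 30.8% (26.4% to 35.5%). For trans contacts the share was 19.4%, and for contacts at 20 kb to 2 Mb it was 41.9%. Among long contacts it was 46.9% in eggs, 11.8% in sperm, 35.4% in the zygotes and 16.0% in shoot cells. Among trans contacts it was 24.4%, 12.2%, 22.5% and 14.9% in the same groups, so long and trans contacts lay close in sperm and shoot cells. For long contacts, cells within a group differed widely, from 19.4% to 69.8% in eggs, and the high value is that of egg 1. Both ends lay in recurrent bins in 34.4% of long contacts in eggs, 17.1% in sperm, 41.8% in the zygotes and 21.0% in shoot cells, so eggs and zygotes were higher in both measures. The part of recurrent bins in the neighbour shares was not tested.

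The longest contact of all was in zygote 2, where chr1:6990262-6991517 met chr1:42457591-42458679 at 35.5 Mb, through 1 read pair. In shoot cells the longest spanned 32.1 Mb, also on chromosome 1. In eggs and sperm the longest was the same fragment pair, chr1:2803918-2804252 with chr1:34372882-34373577 at 31.6 Mb, with 19 read pairs in egg 4 and 1 in sperm 1. Around the threshold, the shortest long contacts spanned 2.04 Mb in eggs, 2.12 Mb in sperm, 2.45 Mb in the zygotes and 2.04 Mb in shoot cells. The nearest contacts below it spanned 1.93, 1.93, 1.75 and 1.99 Mb. There were 12 contacts at 2 to 2.5 Mb and 20 at 1.5 to 2 Mb.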

How the data were processed

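Single-cell Hi-C was measured in 4 eggs, 4 sperm, 3 zygotes and 4 shoot cells. Per the labels' protocols, cells were fixed with formaldehyde, DNA was cut with DpnII and ligated, and the genome was amplified, sheared and sequenced, with no molecular identifiers, so several read pairs can stem from 1 ligated molecule. The authors deposited 1 read pair per line with chromosome, read and fragment positions and strands, and other identifiers, with no normalised value. Aligner, contact caller and genome build: not given in the sources used here. A list of chromosomes and their chain letters was not used.

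Pairs within 1 fragment were left out and the rest reduced to distinct fragment pairs. Far contacts were merged to 1 per pair of 10 kb bins and cell, keeping the one with most read pairs. Expected counts came from all pairs of far ends of a cell, with no draws. They count each pair of ends separately, while the observed contacts are merged. Centromeres were placed at textbook positions of the rice reference genome (for example 17 Mb on chromosome 1 and 12 Mb on chromosome 12), which were not tested against the files' build. The members, the measures and the alternatives were chosen with earlier results of these data known. No genes are named. Chromosomes are given by their ratio, and the contacts named are those whose pair of 1 Mb bins recurs in 2 or more cells and the longest of each group. The bins named in single cells, the pairs of recurrent segments and the contacts nearest the threshold were chosen after their values were seen. Measures were tested on simulated contacts. The tools were matplotlib 3.10.9, scipy 1.17.1, pandas 2.3.3 and numpy 2.4.6 under Python 3.11.15.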

Additional observations from a re-analysis of the deposited data

How the results depend on the processing

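For 28 group values, 290 alternatives were computed. Of these, 258 differed from the main value by no more than the SD over cells and 32 differed by more. In 22 the value crossed 1 (ratios) or 0 (rank correlations), 10 of them in the sparse mirror counts. The ratio to random pairing stayed above 1 in eggs, sperm and zygotes under every alternative run, and in shoot cells fell below 1 without recurrent bins (0.897), with neighboured contacts only (0.926), at 5 Mb (0.964) and without shoot cell 2 (0.995). No paired analysis was possible because the replicate numbers only name cells. Leaving out each cell moved the rank correlation with length over 1.5 times in sperm (0.0885 without sperm 1, 0.0885 to 0.412 in all) and in zygotes (0.0848 to 0.384).

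Shares here are means over cells. With only contacts that have a neighbour within 1 Mb, the long share was 17.6% in eggs and 13.8% in zygotes, and the ratio to random pairing was 1.02 in sperm and 1.01 in zygotes. The between-arm ratio was 0.373 in zygotes and 0.261 in shoot cells, with intervals below 1 that treat clustered contacts as independent. The offset in shoot cells was 0.602 and the mirror ratio in zygotes was 0. The share over 10 Mb was 26.2% in zygotes and 16.7% in shoot cells. Pooled over cells, as in the main results, that share was 21.4% (6 of 28) in zygotes and 37.5% (6 of 16) in shoot cells. The rank correlation was -0.33 in sperm and -0.21 in shoot cells. No value could be had for the mirror ratio in shoot cells. In sperm, 0 of 9 such long contacts lay over 10 Mb, and no mean over cells was had because sperm 3 had none.

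Without fragments of more than 4 partners, the long share was 12.0% in sperm and 13.01% in zygotes, the ratio to random pairing was 1.39 in eggs and 1.41 in zygotes, and the between-arm ratio in eggs was 0.912. From 5 Mb on, the long share was by construction lower (7.91%, 7.45% and 8.44% in eggs, sperm and zygotes) and the share over 10 Mb higher (60.4% in eggs, 63.8% in shoot cells). Without merging, the ratio in sperm was 1.06. With random pairing as expectation, the between-arm ratio was 1.28, 1.08 and 1.24 in eggs, sperm and zygotes. Without recurrent bins the between-arm ratio to even placement was 1.13 in zygotes, and the rank correlation in shoot cells was 0.84. Centromeres 1 Mb higher gave an offset of 0.607 and a mirror ratio of 0.370 in zygotes, and 1 Mb lower a mirror ratio of 1.16. The causes were not tested.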
